A study of Mus musculus with 6 samples.

Results

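Matrix metalloproteinases and their tissue inhibitors were followed through single cells of mouse colon tumors. The 10 genes comprised 7 metalloproteinases, namely the gelatinases Mmp2 and Mmp9, the stromelysins Mmp3 and Mmp10, the collagenases Mmp8 and Mmp13 and the membrane-anchored Mmp14, and the 3 inhibitors Timp1, Timp2 and Timp3. They were taken by name from 19069 genes listed in the count tables, with earlier results of these data known. All 10 genes were detected, with between 599 transcripts (Mmp3) and 12337 transcripts (Mmp2) in the wells that passed the filter.

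The tumors had been induced with the carcinogen azoxymethane (AOM) followed by 3 cycles of dextran sulfate sodium (DSS), which causes colitis. Viable cells negative for EPCAM, CD45 and CD31 were sorted to enrich cancer-associated fibroblasts (CAFs) and sequenced by SORT-seq, in which each well of a 384-well plate receives 1 cell and each mRNA molecule is tagged near its 3' end before amplification. Of 6 mice, 3 were Fib Ctrl (Col6a1Cre transgene negative; mice 1, 3 and 4) and 3 were FibΔZeb1 (Col6a1Cre transgene positive; mice 2, 5 and 6), with 1 plate per mouse. Both genotypes carried Zeb1 fl/fl, a Zeb1 gene that Cre can delete, so that they differed in the Cre transgene, which is active in fibroblasts of the Col6a1 lineage and not in every stromal cell. The study's methods describe age-matched littermates of both sexes on a C57BL/6 background; age and sex of the single mice were not used here. Plate and mouse are the same unit, so that an effect of the plate and of the mouse cannot be told apart. Replicates are separate animals, and the plate of mouse 6 was read on another flow cell than the other 5.

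Metalloproteinases are zinc enzymes that are made as inactive precursors and cleave collagens and other proteins of the extracellular matrix. MMP14 sits in the plasma membrane and, with TIMP2 as a partner, activates MMP2, while MMP3 and MMP10 can activate other precursors, including those of collagenases. TIMPs block the active site of the proteases, and neutrophils store MMP8 and MMP9 in granules.

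Of 2304 wells, 1233 had 100 to 6000 genes and under 10% mitochondrial transcripts, 583 from Fib Ctrl and 650 from FibΔZeb1 mice. Plates held between 1575726 and 3699058 transcripts, spike-in RNA left out. Wells were typed by markers that include none of the 10 genes. A type needed at least 3 markers of its list, and fibroblasts were split by 7 telocyte markers (at least 2; subepithelial fibroblasts that express Foxl1 and Bmp genes) and 11 markers of inflammatory CAFs (iCAFs, at least 3). This gave 564 fibroblast wells (128 telocyte-like, 391 iCAF-like and 45 others), 449 neutrophil, 64 pericyte and 80 epithelial wells. Although CD45-positive cells had been gated out, neutrophils made up between 9.29% (mouse 1) and 85.5% (mouse 3) of the wells of a mouse, and their marker list summed to 101682 CPM (transcripts of a gene per 1e6 transcripts of the wells summed) in neutrophil wells and 158 CPM in fibroblast wells. The telocyte list summed to 2019 CPM in telocyte-like and 258 CPM in iCAF-like wells, and the iCAF list to 3537 and 11586 CPM. These sums, like those of the neutrophil list, had to differ, since the wells were typed by the same markers. The subtypes are ranges rather than separate types, since 136 fibroblast wells outside the telocyte-like class also had at least 2 telocyte markers. The macrophage gate held 0 wells. Zeb1 itself was at 111, 113 and 96.0 CPM in the fibroblast wells of Fib Ctrl mice and at 57.5, 66.2 and 65.7 CPM in those of FibΔZeb1 mice, without overlap. How many other genes likewise did not overlap was not counted. Between genotypes, 0 of 8794 genes tested in fibroblast wells passed with edgeR, so that the Zeb1 levels are given as values only.

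Mmp13, Mmp3, Mmp10 and Mmp8 lie on the same strand of mouse chromosome 9 within 296.0 kb, in this order (GRCm38, GENCODE gene models). Mmp13 spans chr9:7272514-7283331, Mmp3 chr9:7445822-7455975, Mmp10 chr9:7502352-7510240 and Mmp8 chr9:7558456-7568485. The annotation holds 7 Mmp genes within these 296.0 kb, of which 6 were listed in the files. The promoters of these neighbors are shown because their transcripts lay mostly in different types of wells, except that Mmp13 and Mmp10 shared the telocyte-like wells. Each promoter has 250 bases before and 50 bases after the start of the RefSeq transcript (GRCm38.p6, plus strand). Capitals mark an AP-1 motif (letters TGANTCA), the core promoter letters TATAAA or a C/EBP motif (letters TTGCNNAA) on either strand, and no 2 of these matches overlap. The windows are chr9:7272264-7272563 (Mmp13), chr9:7445572-7445871 (Mmp3), chr9:7502092-7502391 (Mmp10) and chr9:7558179-7558478 (Mmp8).
Mmp13: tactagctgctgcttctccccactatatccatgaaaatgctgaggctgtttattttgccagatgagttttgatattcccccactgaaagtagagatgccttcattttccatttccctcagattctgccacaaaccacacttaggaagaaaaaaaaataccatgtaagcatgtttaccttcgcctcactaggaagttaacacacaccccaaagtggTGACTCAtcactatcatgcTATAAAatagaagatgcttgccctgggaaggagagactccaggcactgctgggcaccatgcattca
Mmp3: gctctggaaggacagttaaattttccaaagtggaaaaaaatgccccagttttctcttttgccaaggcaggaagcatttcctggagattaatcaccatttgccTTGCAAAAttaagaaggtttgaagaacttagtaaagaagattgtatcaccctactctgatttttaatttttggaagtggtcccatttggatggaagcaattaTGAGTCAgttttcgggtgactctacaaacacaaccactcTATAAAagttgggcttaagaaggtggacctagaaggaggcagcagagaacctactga
Mmp10: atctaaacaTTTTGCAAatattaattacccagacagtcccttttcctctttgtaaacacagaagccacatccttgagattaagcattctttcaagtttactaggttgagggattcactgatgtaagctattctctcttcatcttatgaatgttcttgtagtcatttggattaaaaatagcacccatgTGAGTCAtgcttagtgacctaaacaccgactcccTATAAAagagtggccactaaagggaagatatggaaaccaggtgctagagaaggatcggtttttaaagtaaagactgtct
Mmp8: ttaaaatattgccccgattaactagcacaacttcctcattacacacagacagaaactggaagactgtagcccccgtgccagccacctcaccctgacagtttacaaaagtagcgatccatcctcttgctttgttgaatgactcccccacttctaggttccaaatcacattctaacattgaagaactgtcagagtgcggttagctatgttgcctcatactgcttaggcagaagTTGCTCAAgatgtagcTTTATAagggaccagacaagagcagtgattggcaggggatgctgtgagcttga

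The AP-1 letters were present in Mmp13 (bases -35 to -29 from the start), Mmp3 (-46 to -40) and Mmp10 (-63 to -57), and not in this window of Mmp8 or of Mmp14, Timp1, Timp2 and Timp3, the other members with a promoter in the table. They occurred in 7.81% of 32851 promoters of the same length. TATAAA was present in all 4 promoters printed, in Mmp8 on the reverse strand, and in 13.6% of all promoters, while TTGCNNAA was present in Mmp3, Mmp10 and Mmp8 and in 10.8% of all promoters. These matches describe the letters only.

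The remaining members lie elsewhere. Mmp2 spans chr8:92827291-92853420, Mmp9 chr2:164940780-164955850, Mmp14 chr14:54431612-54445364, Timp1 chrX:20870166-20874735, Timp2 chr11:118301069-118355740 and Timp3 chr10:86300372-86349506. Timp1 lies within Syn1 and Timp3 within Syn3, each on the opposite strand, and exons of Timp3 and Syn3 overlap. CEL-Seq2 keeps strand, but whether the counting used it is not given in the sources used here, so that Timp3 counts could hold reads of Syn3.

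The members differed in the wells that held their transcripts. Of all Mmp8 transcripts, 97.9% were in neutrophil wells, which held 7.76% of all transcripts. Telocyte-like wells held 20.3% of all transcripts but 95.0% of the Mmp10 and 93.8% of the Mmp13 transcripts. Mmp9 was split, with 73.3% in neutrophil and 22.8% in telocyte-like wells. The transcripts of Mmp2, Mmp14 and the TIMPs followed the fibroblast wells at large. Those of Mmp3 lay in fibroblast wells too, but in few of them, with 55.1% in its 5 highest wells. For Mmp2, 67.4% were in iCAF-like and 28.5% in telocyte-like wells, and these shares were 68.0% and 29.6% for Mmp3, 58.0% and 26.3% for Mmp14, 65.2% and 20.9% for Timp1, 71.3% and 18.4% for Timp2, and 68.3% and 15.4% for Timp3, against 48.2% and 20.3% of all transcripts. Pericytes, with 8.65% of all transcripts, held 7.8% of the Mmp14, 9.0% of the Timp1 and 8.8% of the Timp3 transcripts.

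**Figure D1:**
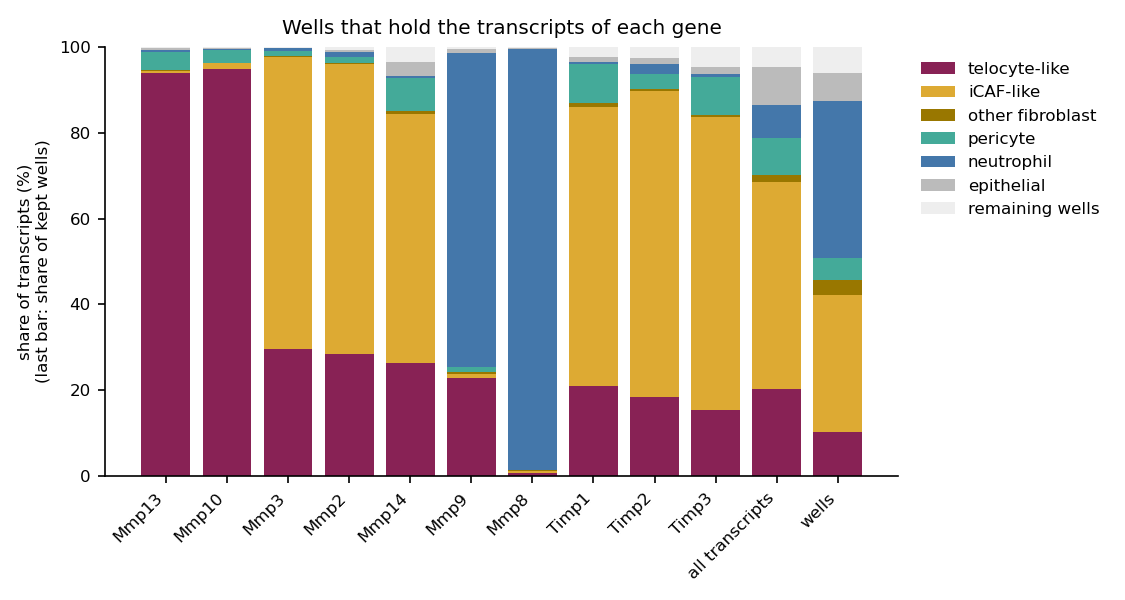
Share of the transcripts of each gene (y axis, %) found in each type of well, with all transcripts and all 1233 wells as the last bars. Mmp13 and Mmp10 lie almost wholly in telocyte-like wells and Mmp8 in neutrophil wells, Mmp9 is split between them, and the other genes lie mostly in iCAF-like wells.

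Neutrophil wells carried Mmp8, the neutrophil collagenase, and Mmp9 in every mouse. Mmp8 was at 912, 1530 and 668 CPM in the neutrophil wells of Fib Ctrl mice 1, 3 and 4, and at 842, 422 and 1083 CPM in FibΔZeb1 mice 2, 5 and 6. In fibroblast wells it did not exceed 16.4 CPM in any mouse. Mmp9 was at 1282, 1454 and 1304 CPM in neutrophil wells of Fib Ctrl and at 1153, 833 and 1093 CPM in those of FibΔZeb1 mice, and at between 6.0 and 242 CPM in fibroblast wells. For both genes the 6 neutrophil values lay above the 6 fibroblast values. Between neutrophil and fibroblast wells, with the mouse as a block, the log2 fold change of Mmp8 was 8.61 ± 0.50 (SE; adjusted p = 8.5e-25 by the quasi-likelihood test of edgeR, corrected after Benjamini and Hochberg) and that of Mmp9 5.42 ± 0.49 (adjusted p = 9.8e-16). Mmp8 reached the filter on low counts (10 transcripts in a sum of median size) in 0 and Mmp9 in 2 of the 6 fibroblast sums, so that both entered through the neutrophil wells and had to differ. Depth ran the other way, with a median of 11583 transcripts in fibroblast and 1439 in neutrophil wells. Thinned to 500 transcripts per well, 137 of 420 neutrophil wells (32.6%, exact 95% interval 28.2 to 37.3) had Mmp8 and 155 (36.9%, 32.3 to 41.7) had Mmp9, against 2 of 546 fibroblast wells (0.366%, 0.044 to 1.32) with Mmp8 and 10 (1.83%, 0.882 to 3.34) with Mmp9. Without thinning, 186 of 449 neutrophil wells had both transcripts and 111 had neither.

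The other members tested were lower in neutrophil wells. Mmp10, Mmp14, Timp1, Timp3, Mmp2 and Timp2 had log2 fold changes of -4.48, -3.38, -3.36, -2.99, -2.77 and -1.83, so that of 8 members tested 2 were higher and 6 lower. Mmp10 and Timp1, which reached the filter in 1 and 0 of 6 neutrophil sums, entered through the fibroblast wells and had to differ as well, so that nothing is read from this count. Of all 3845 genes tested, 72.6% were called, 29.6% higher and 42.9% lower, and the members' median of -2.88 stood beside a median over all genes of -0.44. This median depended on the scaling and was -0.98 with DESeq2 and -0.95 with RLE size factors. Relative to it the members kept their directions, with Mmp8 between 9.05 and 9.29, Mmp9 between 5.86 and 6.24 and Timp2, the smallest difference, between -1.39 and -1.32. Timp2 remained measurable in neutrophil wells, at between 211 and 294 CPM in the 6 mice, as did Mmp2 at between 80.7 and 412 CPM. The fibroblast markers, which neutrophils lack, summed to 2385 CPM in the same wells against 46274 CPM in fibroblast wells, and the part of such carried-over RNA in these values was not tested.

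**Figure D2:**
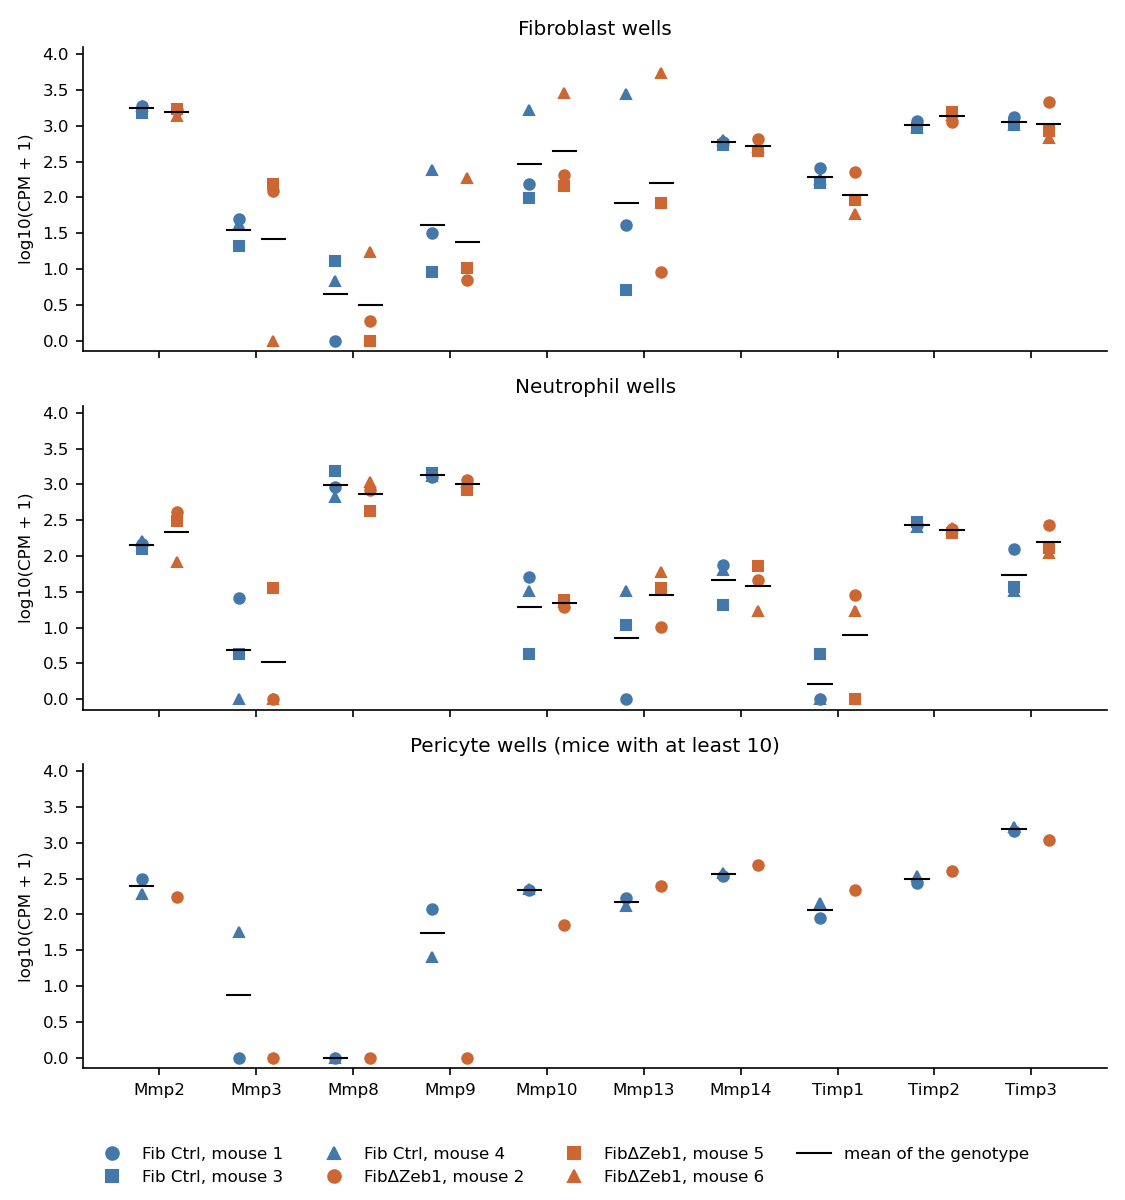
Level of each gene by mouse, as log10(CPM + 1) over the fibroblast, neutrophil and pericyte wells of a mouse (y axis), with Fib Ctrl in blue, FibΔZeb1 in orange and lines at the mean of a genotype with at least 2 mice. Mmp8 and Mmp9 are high in neutrophil wells of all 6 mice, Mmp10 and Mmp13 spread over several orders of magnitude between fibroblasts of different mice, and the genotypes overlap for all genes in fibroblast wells.

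Telocyte-like fibroblasts held most transcripts of Mmp10, a stromelysin, and of Mmp13, the main interstitial collagenase of rodents. Mmp10 was at 733, 215 and 2614 CPM in the telocyte-like wells of Fib Ctrl mice 1, 3 and 4, and at 683, 962 and 5411 CPM in FibΔZeb1 mice 2, 5 and 6. In the remaining fibroblast wells of the same mice it was at 7.4, 0 and 58.5 CPM and at 6.1, 3.2 and 8.6 CPM. Every mouse was higher in its telocyte-like wells, although mice 3 and 6 had only 8 and 7 of them. Over the 4 mice with at least 10 wells of both kinds (mice 1, 2, 4 and 5), the log2 fold change of Mmp10 was 6.46 ± 0.36 (SE; adjusted p = 4.8e-06, edgeR). Mmp13 was more uneven, at 187, 8.9 and 4349 CPM in telocyte-like wells of Fib Ctrl and 25.8, 560 and 10418 CPM in those of FibΔZeb1 mice. In the remaining fibroblasts it was at 4.0, 0 and 78.0 CPM and at 0.6, 1.1 and 25.7 CPM, and the log2 fold change was 6.01 ± 0.41 (adjusted p = 1.7e-05, edgeR). Both genes passed the filter on low counts through the telocyte-like wells and so had to differ. Pericyte wells, which are outside this contrast, had Mmp10 at 70.8 to 227 CPM and Mmp13 at 130 to 248 CPM in 3 mice (1, 4 and 2). These levels lay above the remaining fibroblasts of the same mice, and for Mmp13 also above the telocyte-like wells of mouse 2. They rested on few wells, as 6 of all 64 pericyte wells had Mmp10 and 5 had Mmp13.

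Mmp9 shared this direction. It was at 141, 8.9 and 373 CPM in telocyte-like wells of Fib Ctrl mice and at 15.8, 43.7 and 347 CPM in those of FibΔZeb1 mice, against 3.4, 7.3 and 15.6 CPM and 1.8, 3.2 and 8.6 CPM in the remaining fibroblasts. Its counts fell under the filter of this comparison, but iCAF-like wells set against the other fibroblasts, most of which are telocyte-like, gave a log2 fold change of -4.61 ± 0.35 (adjusted p = 4.4e-05, edgeR). There Mmp9 reached the filter in 0 of 4 iCAF-like sums and in all 4 of the other fibroblasts, so that it had to differ and the p-value adds nothing to the levels. The neutrophil markers summed to 154 CPM in telocyte-like and 142 CPM in iCAF-like wells, and none of the 10 was at 0 in either.

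Timp2 moved the other way, at 758, 698 and 829 CPM in telocyte-like wells of Fib Ctrl and 755, 906 and 1582 CPM in those of FibΔZeb1 mice, against 1262, 1121 and 1149 CPM and 1289, 1664 and 1222 CPM in the remaining fibroblasts. All mice but mouse 6, with 7 telocyte-like wells, were lower in the telocyte-like wells. The log2 fold change over 4 mice was -0.83 ± 0.19 (adjusted p = 0.015, edgeR), and this call was lost without mouse 1 (adjusted p = 0.14) or mouse 2 (0.10). Of 8 members tested, 2 were higher and 1 lower, against 4.9% and 6.02% (together 10.9%) of all 7279 genes. The 2 higher members are Mmp10 and Mmp13, which had to differ, so that nothing is read from this count. Mmp14 (0.15), Mmp2 (-0.15), Mmp3 (-0.83), Timp1 (-0.57) and Timp3 (-0.69) did not pass. Timp1 passed with wells of up to 30% mitochondrial transcripts (adjusted p = 0.038, edgeR), and Timp3 without mouse 5 (-1.38, adjusted p = 0.0087) or without the filter on low counts (-0.74, adjusted p = 0.033). The members' median of -0.36 stood beside 0.01 over all genes.

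Thinning to 500 transcripts gave the same picture by wells. Mmp10 was found in 28 of 128 telocyte-like wells (21.9%, 15.1 to 30.04) and in 2 of 387 iCAF-like wells (0.517%, 0.063 to 1.85). Mmp13 was found in 10 telocyte-like wells (7.81%, 3.81 to 13.9) and in 0 of 387 iCAF-like wells, which allows a share of up to 0.775% at this thinned depth. At full depth 9 of 391 iCAF-like wells (2.30%, 1.06 to 4.32), 30 of 128 telocyte-like wells (23.4%, 16.4 to 31.7) and 17 of 449 neutrophil wells (3.79%, 2.22 to 5.99) had Mmp13. Thinned neutrophil wells, which were assumed to lack both genes, had shares of 1.19% (Mmp10) and 1.43% (Mmp13). The thinned share of telocyte-like wells lay above this level for both genes, and that of iCAF-like wells did not. Before thinning, the median depth was 1439 transcripts in neutrophil and 11457 in iCAF-like wells. The level is therefore not matched, and it cannot show whether iCAF-like wells lack the genes.

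**Figure D3:**
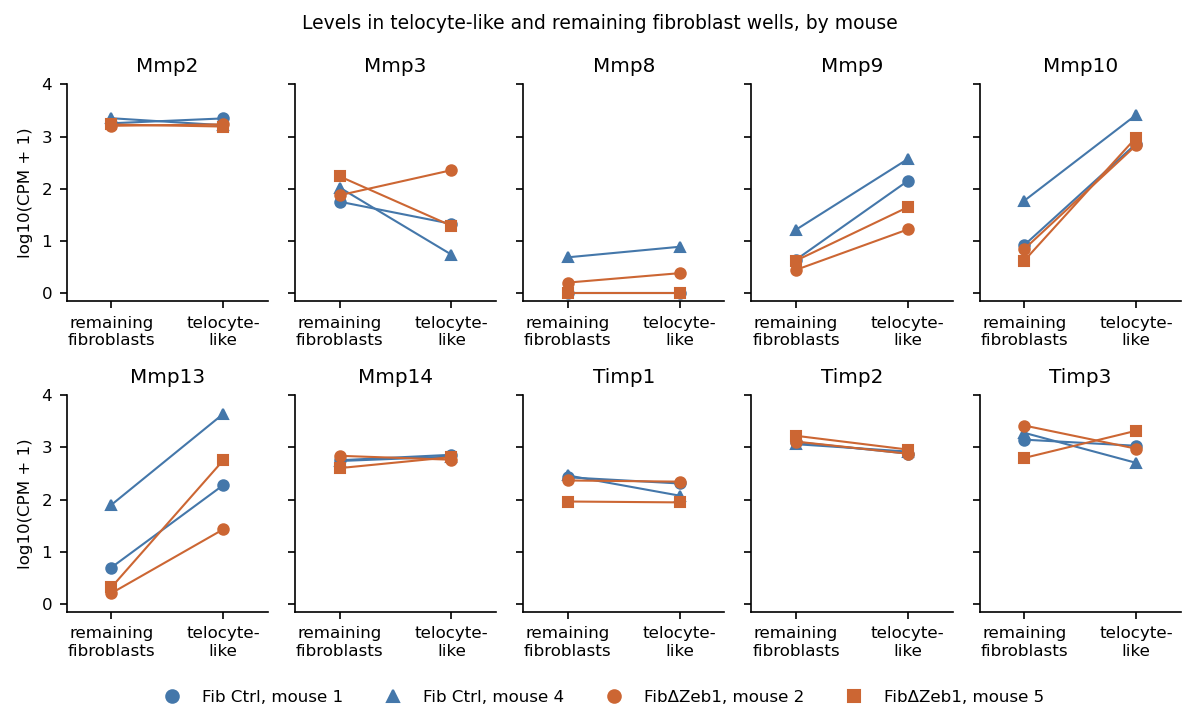
Level of each gene as log10(CPM + 1) (y axis) in the telocyte-like and the remaining fibroblast wells of the 4 mice with at least 10 wells of both kinds, 1 line per mouse, with Fib Ctrl in blue and FibΔZeb1 in orange. From the remaining fibroblasts to the telocyte-like wells, lines climb for Mmp10, Mmp13 and Mmp9 in all 4 mice and drop slightly for Timp2, while those of Mmp2 and Mmp14 are nearly flat on this scale.

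Within the telocyte-like class, more wells had the stromelysin Mmp10 than the collagenase Mmp13. Of 128 wells, 72 had at least 1 transcript of Mmp10 and 30 of Mmp13, and 23 of these 30 also had Mmp10. Mmp9 was found in 33 wells, of which 27 had Mmp10. A few wells held most of the Mmp13 transcripts, since the 5 highest wells of all 1233 held 83.7% of them, 51.6% of the Mmp10 and 55.1% of the Mmp3 transcripts, and between 3.83% and 13.4% for the other members. In mouse 6 a single telocyte-like well with 1225 Mmp13 and 568 Mmp10 transcripts gave 92.7% and 82.7% of that class's total, and in mouse 5 a single well gave 85.5% of the Mmp13.

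Telocyte-like wells with at least 10 Mmp13 transcripts numbered 11 and came from 4 mice (2 from mouse 1, 5 from mouse 4, 2 from mouse 5 and 2 from mouse 6). They were set apart after the values had been seen, so that their profile is given without a test. Mmp10 was at 11526 CPM over these wells and at 504 CPM over the other 117, and Mmp9 was at 1126 and 57.4 CPM. Mmp2 went the other way, with 485 and 1896 CPM, as did Timp1 with 84.9 and 174 CPM and Timp3 with 608 and 948 CPM. Mmp14 was at 667 and 623 CPM. Timp2 was at 1197 against 801 CPM over the wells summed, but its median well was at 591 against 741 CPM. The highest of the 11 wells was at 4160 CPM of Timp2, so that no direction is read for this gene. Other genes, likewise chosen after their values were seen, were the cytokine genes Il11 (3815 against 145 CPM) and Inhba (5981 against 299 CPM) and the neutrophil-attracting chemokines Cxcl1 (3543 against 332 CPM) and Cxcl2 (1357 against 50.8 CPM). Mmp12, which lies between Mmp13 and Mmp3 on chromosome 9, was found in 5 of them (194 CPM) and in 0 of the other 117 wells. Depth was alike, with medians of 15024 and 15317 transcripts.

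**Figure D4:**
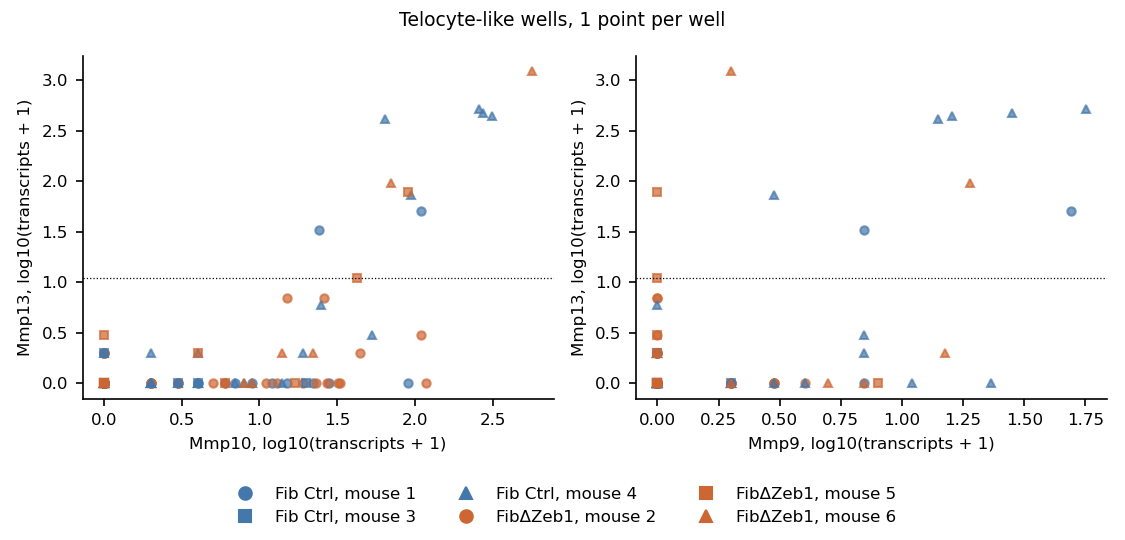
Mmp13 against Mmp10 (left) and Mmp9 (right) in the 128 telocyte-like wells, as log10(transcripts + 1), with Fib Ctrl mice in blue, FibΔZeb1 mice in orange and a dotted line at 10 transcripts of Mmp13. All 11 wells at or above the line had Mmp10, and 9 of them had Mmp9.

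Mmp2, Mmp14 and Timp2, the parts of the pro-MMP2 activation complex, were broad fibroblast genes. Mmp2 was at 1894, 1514 and 1879 CPM in the fibroblast wells of Fib Ctrl mice and at 1649, 1692 and 1365 CPM in those of FibΔZeb1 mice. Mmp14 was at 596, 543 and 622 CPM and at 655, 436 and 498 CPM, and Timp2 at 1161, 931 and 947 CPM and at 1130, 1552 and 1410 CPM. The 6 mice thus stayed within a narrow range, unlike Mmp10 and Mmp13. At least 1 transcript of all 3 genes was found in 472 of 564 fibroblast wells (83.7%). After thinning, 52.4% of fibroblast wells had Mmp2, 22.5% Mmp14 and 41.6% Timp2, against 9.05%, 1.19% and 10.95% of neutrophil wells. Thinned to 1000 transcripts, the fibroblast shares were 73.7%, 39.5% and 67.3%, and those of neutrophil wells 12.2%, 3.21% and 20.8%.

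The inhibitors differed in how far they extended beyond fibroblasts. Timp1 was at 253, 157 and 181 CPM in fibroblast wells of Fib Ctrl and at 228, 90.3 and 57.5 CPM in those of FibΔZeb1 mice. Timp3, which binds to the matrix, was at 1337, 1093 and 1016 CPM and at 2120, 841 and 668 CPM. All 3 TIMPs were found together in 303 of 564 fibroblast wells, 2 in 185, 1 in 60 and none in 16. In iCAF-like against other fibroblasts, Timp2 was higher (log2 fold change 0.98 ± 0.17, adjusted p = 0.0044, edgeR), and Timp1 (0.69 ± 0.22, adjusted p = 0.067) and Timp3 (0.85 ± 0.44, adjusted p = 0.28) did not pass. Timp1 passed when wells with up to 30% mitochondrial transcripts were kept (adjusted p = 0.011, edgeR) and without the filter on low counts (0.0082). Timp3 passed without mouse 5 (1.46, adjusted p = 0.0047, edgeR) and without that filter (0.88, adjusted p = 0.00021). Of 9 members tested there, 1 was higher and 3 lower (Mmp10 by -6.36, Mmp13 by -6.71 and Mmp9), against 7.16% and 5.16% (together 12.3%) of 7419 genes. Mmp10 and Mmp13 reached the filter in 1 of 4 iCAF-like sums each and Mmp9 in none, so that the 3 lower members had to differ and nothing is read from the count. Mmp2 (0.35), Mmp3 (0.96) and Mmp14 (0.02) did not pass, although Mmp3 did without mouse 2 (3.02, adjusted p = 0.0062, edgeR) or without the filter (1.03, adjusted p = 0.00079). The members' median of 0.35 stood beside -0.02 over all genes. This contrast largely mirrors that of the telocyte-like wells and is not independent of it.

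Mmp3, a stromelysin that can activate collagenase precursors, was found in few wells. It was at 48.9, 20.1 and 41.6 CPM in the fibroblast wells of Fib Ctrl mice and at 120, 150 and 0 CPM in those of FibΔZeb1 mice. Of 564 fibroblast wells, 58 had at least 1 transcript and 15 at least 10, the latter from mice 1 (5 wells), 4 (2 wells), 2 (3 wells) and 5 (5 wells). In mouse 2 a single telocyte-like well held 148 transcripts, 93.1% of that class, and without this mouse Mmp3 was lower in telocyte-like wells (log2 fold change -2.84, adjusted p = 0.012, edgeR), as it was without the filter on low counts (-0.92, adjusted p = 0.0088). Mmp10 was found in 29.3% of the wells with Mmp3 and in 15.4% of those without, whose median depths were 11441 and 11689 transcripts.

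Pericytes, the contractile cells around small vessels, had less Mmp2 and Timp2 than fibroblasts, while the difference in Timp3 did not pass. In the 3 mice with at least 10 pericyte wells (mice 1, 4 and 2), Timp3 was at 1467, 1660 and 1101 CPM, within the range of the fibroblast wells (log2 fold change -0.17 ± 0.32, adjusted p = 0.82, edgeR). Mmp2 was at 314, 194 and 174 CPM there (-3.17 ± 0.29, adjusted p = 1.1e-06) and Timp2 at 275, 348 and 405 CPM (-1.77 ± 0.28, adjusted p = 0.00024). Both were lower in pericytes in all 3 mice. Mmp14 (-0.75 ± 0.26, adjusted p = 0.070) and Timp1 (-0.61 ± 0.31, adjusted p = 0.25) did not pass, but Mmp14 did without the filter on low counts (-0.84, adjusted p = 0.044, edgeR) and with wells of up to 30% mitochondrial transcripts (-0.92, adjusted p = 0.0037). Mmp3 (-2.98 ± 0.86, adjusted p = 0.024) and Mmp10 (-1.53 ± 0.45, adjusted p = 0.026) passed, but Mmp3 ran from -10.08 without mouse 4 to -0.81 without mouse 2, where its call was lost (adjusted p = 0.57), as it was with DESeq2 (0.32), and that of Mmp10 without mouse 4 (0.20). Without the mouse as a block, Mmp3 (adjusted p = 0.088) and Mmp10 (0.13) did not pass either. Of 9 members tested, 0 were higher and 4 lower, against 7.44% and 8.49% (together 15.9%) of 7518 genes, and the members' median of -0.91 stood beside -0.03 over all genes. Mmp3 reached the filter in 1 of 3 pericyte sums, so that it had to differ. The fibroblasts of this contrast include the telocyte-like wells, which held most of the Mmp10 transcripts. Mmp13 (1.04) and Mmp9 (-0.91) were not called and rested on few wells, as 1 pericyte well of 31 in mouse 2 held all its 120 Mmp13 transcripts. No direction can be given for either: Mmp13 was called higher without mouse 4 (3.32, adjusted p = 1.9e-13, edgeR) and lower without mouse 2 (-1.66, adjusted p = 0.034), and Mmp9 was called lower without mouse 1 (-3.51, adjusted p = 0.00032) and with wells of up to 30% mitochondrial transcripts (-2.57, adjusted p = 0.039) but stood at 0.69 without mouse 4.

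Epithelial wells were low throughout. In mice 4, 5 and 6, Mmp14 was at 275, 117 and 197 CPM, Timp3 at 302, 131 and 326 CPM and Timp2 at 217, 38.1 and 293 CPM. Each lay below the fibroblast wells of its mouse. All 7 members tested were lower, with log2 fold changes of -7.59 (Mmp10), -6.99 (Mmp13), -4.68 (Mmp2), -3.28 (Timp2), -3.01 (Timp1), -2.00 (Timp3) and -1.64 (Mmp14), against 9.45% of 5673 genes, and the members' median was -3.28 beside 0.02 over all genes. Mmp10 and Timp1 reached the filter in 0 and Mmp13 in 2 of 3 epithelial sums, with 6, 18 and 16 transcripts in 80 wells, so that Mmp10 and Timp1 had to differ and nothing is read from the count. None was higher, against 3.21% of genes, and 12.7% of genes were called in either direction. The calls of Mmp14, Timp1, Timp2 and Timp3 were lost without mouse 4 (adjusted p between 0.072 and 0.22), and those of Mmp14, Timp2 and Timp3 also without mouse 6 (between 0.083 and 0.15).

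Ordered by mean level, Mmp14 was highest in telocyte-like (653 ± 58.2 CPM, SD, n = 4 mice) and iCAF-like wells (561 ± 99.03 CPM, n = 5), followed by pericytes (407 ± 79.8 CPM, n = 3), epithelial wells (196 ± 78.9 CPM, n = 3) and neutrophils (48.3 ± 25.4 CPM, n = 6). The first 3 overlapped with their neighbors within the SD, and the last 2 stood apart. Timp3 came in the order iCAF-like (1585 ± 762 CPM), pericytes (1409 ± 284 CPM), telocyte-like (1149 ± 665 CPM), epithelial (253 ± 106 CPM) and neutrophil wells (116 ± 84.9 CPM), where the first 3 lay within their spread, as did the last 2. Mmp9 came in the order neutrophils (1186 ± 214 CPM), telocyte-like (143 ± 162 CPM), pericytes (47.4 ± 62.3 CPM), epithelial (17.8 ± 15.4 CPM) and iCAF-like wells (4.7 ± 3.1 CPM), where only the first stood apart from its neighbor beyond the spread.

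**Figure D5:**
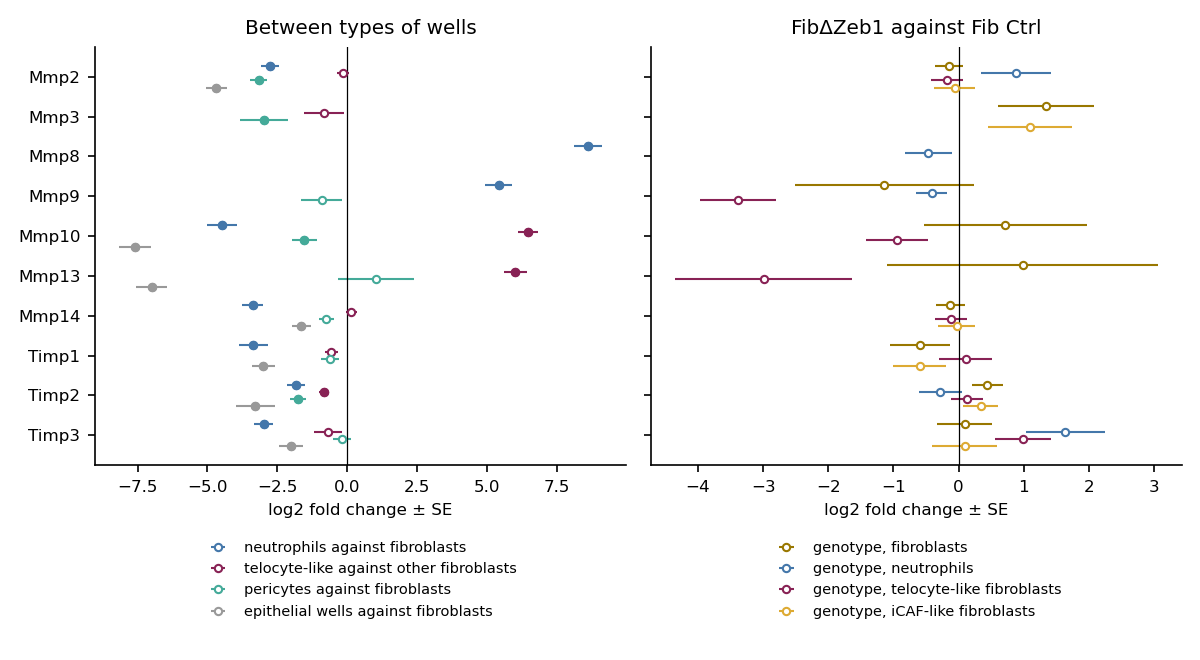
Log2 fold change with its SE (x axis) of each member tested, between types of wells (left) and between FibΔZeb1 and Fib Ctrl (right, with its own scale), filled where the adjusted p of edgeR is under 0.05. Filled points occur on the left only.

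The genes whose levels ran most closely with each member were named by Pearson's r of log2(CPM + 10) over 27 sums of a mouse and a type, among 7151 genes. The sums share mice and types, so that r is a description of where genes are found. Mmp8 ran with Slc2a6 (r = 0.986), Lilra6 (0.976) and Nfe2 (0.976), and Mmp9 with Slc16a3 (0.908), Pla2g7 (0.886) and Arg2 (0.881). Mmp10 ran with Stc1 (0.821), Col6a4 (0.799) and Mmp13 (0.796), and Mmp13 with Mmp10, Stc1 (0.734) and Inhba (0.715). Among the broad fibroblast genes, Mmp2 ran with Igfbp4 (0.929), Dpt (0.929), an iCAF gate marker, and Igf1 (0.925). Mmp14 ran with Rrbp1 (0.908), S100a13 (0.895) and Bmpr1a (0.888), and Mmp3, least closely, with Cxcl13 (0.786), Nsg1 (0.715) and C1qtnf3 (0.707). Timp1 ran with Fkbp7 (0.933), Efemp2 (0.924) and Fcgrt (0.924), Timp2 with Plod2 (0.87), Ctsl (0.862) and Vcan (0.848), and Timp3 with Prkcdbp (0.923), Calu (0.911) and Angptl2 (0.903). Across single wells, Cxcl13 was found in 24.1% of fibroblast wells with Mmp3 (188 CPM) and in 26.3% of those without (283 CPM). In the 15 wells with at least 10 Mmp3 transcripts it was found in 33.3% (542 CPM). These differences were not tested, and no direction is read from them.

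Other proteases and regulators of the pathway were taken from a list of 49 genes, 47 of them listed in the files. Of all genes tested, 29.6% and 42.9% were called higher and lower in neutrophil, 4.9% and 6.02% in telocyte-like and 7.16% and 5.16% in iCAF-like wells. The shares were 7.44% and 8.49% in pericyte and 3.21% and 9.45% in epithelial wells. Which related genes passed the filter on low counts through a single side was not determined, so that nothing is read from their counts. In neutrophils against fibroblasts, 5 of 26 tested were higher and 16 lower. The higher genes included the sheddase Adam8 (log2 fold change 9.005), Lcn2, whose product binds MMP9 (5.09), and the urokinase receptor Plaur (4.35). Mmp23 (-4.59), Htra1 (-4.14), the inhibitor Serpine2 (-4.13), the clearance receptor Lrp1 (-3.83) and Htra3 (-3.70) were lower. In telocyte-like against other fibroblasts, 3 of 31 were higher, Lcn2 (2.24), Adam19 (1.38) and Htra1 (1.26), and 6 lower, among them the aggrecanase Adamts5 (-2.76), Adamts1 (-1.52), the collagenolytic cathepsin Ctsk (-1.34), Htra3 (-1.22) and Adamts2 (-1.17). In iCAF-like wells the counts were 7 higher and 2 lower of 31, with Adamts5 (2.86), Ctsk (1.52), Htra3 (1.399), Adamts1 (1.397) and Adamts2 (1.33) higher and Adam19 (-1.21) and Htra1 (-1.05) lower. Reck, a membrane-anchored inhibitor of metalloproteinases, was higher by 1.07 there. In pericytes, 7 of 31 were higher, led by Adamts4 (2.30) and Plat (2.02), a plasminogen activator, and 11 lower, led by Htra3 (-4.04), Adamts5 (-3.89), Plaur (-2.40), Lrp1 (-2.35), Lcn2 (-2.23) and Ctsk (-1.99). In epithelial wells, 0 of 28 were higher and 17 lower, led by Htra3 (-6.11), Adam19 (-5.79), Ctsk (-5.39), Plau (-5.33), Adamts5 (-5.07), Adamts2 (-4.61) and Lrp1 (-4.02).

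Comparing FibΔZeb1 with Fib Ctrl asks whether fibroblast deletion of Zeb1 changed these genes. Over all wells of a mouse, Mmp8 and Mmp9 were highest in the mice with most neutrophil wells. Mmp8 was at 15.2, 700 and 22.1 CPM in Fib Ctrl mice 1, 3 and 4 and at 29.9, 23.5 and 300 CPM in FibΔZeb1 mice 2, 5 and 6, high in the mice whose wells were 85.5% (mouse 3) and 65.1% (mouse 6) neutrophils and low in the other 4, with 9.29% to 28.0%. Mmp9, at 54.2, 662 and 187 CPM and at 46.1, 50.1 and 368 CPM, was likewise highest in mice 3 and 6. In such sums fewer cells of a type and less RNA per cell cannot be told apart. Mmp10 was at 148, 37.5 and 1024 CPM and at 167, 98.4 and 1009 CPM, and Mmp13 at 43.6, 6.0 and 1675 CPM and at 45.4, 57.9 and 1953 CPM, high in 1 mouse of each genotype (mice 4 and 6). Telocyte-like wells were 35 of 136 kept wells in mouse 4, 7 of 109 in mouse 6 and 39 of 298 in mouse 2. In mouse 6 a single telocyte-like well gave most of the Mmp10 and Mmp13 of that class. The part that the share of telocyte-like wells has in these levels was not tested. Mmp2, Mmp3, Mmp14, Timp1, Timp2 and Timp3 overlapped between genotypes as well. Of 10 members, 0 passed, as 0% of 10424 genes did with edgeR, where 73 genes had an unadjusted p under 0.05 and DESeq2 called 1 gene.

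Within fibroblast wells, 0 of 9 members tested passed, and 0% of 8794 genes, with 123 genes at an unadjusted p under 0.05 and 2 genes called by DESeq2. On simulated counts of this comparison, edgeR recovered 98.4% of genes changed by 3 on the log2 scale, and 7.84% of its calls were false. The changed genes were drawn at random from those above a mean count. This share therefore does not describe members with wide errors, such as Mmp10 and Mmp13. Timp2 (0.44 ± 0.23, unadjusted p = 0.094, edgeR) and Mmp3 (1.34 ± 0.74, unadjusted p = 0.10, edgeR) had the lowest p-values, and in both the genotypes overlapped, Mmp3 being at 0 in mouse 6, which had 15 fibroblast wells. The log2 fold changes of Mmp2 (-0.15 ± 0.22), Mmp14 (-0.13 ± 0.22), Timp1 (-0.59 ± 0.46) and Timp3 (0.09 ± 0.42) were close to their errors or below. Those of Mmp10 (0.72 ± 1.25), Mmp13 (0.98 ± 2.08) and Mmp9 (-1.14 ± 1.37) had wide errors, since 1 mouse of each genotype (mice 4 and 6) was far above the others. Without mouse 6, Mmp10 and Mmp13 turned to -1.77 and -4.28, and without mouse 4, Mmp9 turned to 0.85. The median of the members was 0.09, beside 0.00 over all genes.

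Neutrophil wells gave log2 fold changes of -0.46 ± 0.36 for Mmp8 and -0.41 ± 0.24 for Mmp9, and 0 of 5 members tested passed, as 0% of 1393 genes (58 at an unadjusted p under 0.05, 0 called by DESeq2). Without mouse 3 the difference of Mmp8 vanished (0.02). Mmp9 was at 1282 to 1454 CPM in Fib Ctrl and 833 to 1153 CPM in FibΔZeb1 mice, and Timp2 at 254 to 294 CPM and 211 to 242 CPM. How many of the 1393 genes likewise did not overlap between genotypes was not counted, so that nothing is read from these gaps. Timp3 had the lowest p-value of the members (adjusted p = 0.98, unadjusted p = 0.016, edgeR), at 123, 36.3 and 31.8 CPM in Fib Ctrl and 265, 129 and 108 CPM in FibΔZeb1 mice.

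In telocyte-like wells, 0 of 8 members passed, and 0% of 6861 genes, with 330 genes at an unadjusted p under 0.05 and 3 called by DESeq2. Mmp9 was lower in the 2 FibΔZeb1 mice (15.8 and 43.7 CPM) than in the 2 Fib Ctrl mice (141 and 373 CPM) with at least 10 wells, by a log2 fold change of -3.39 ± 0.59 (adjusted p = 0.20, edgeR; adjusted p = 0.0051 with DESeq2). Mmp13 (-2.99 ± 1.36, adjusted p = 0.98) and Mmp10 (-0.95 ± 0.47, adjusted p = 1.0) were not called. Without each of the 4 mice in turn, Mmp9 ran from -2.47 to -3.92. These fits left 1 mouse in a genotype, whose spread between mice they cannot measure, so that no p-value is given. Mmp9 passed without the filter on low counts (-3.38, adjusted p = 4.8e-13, edgeR), where 130 of 14387 genes were called. Mmp13 passed without that filter as well (-3.04). Without mouse 4, Mmp10 and Mmp13 turned to 0.18 and 0.52. Mmp13 was at -3.93 without mouse 1, -1.91 without mouse 2 and -6.33 without mouse 5. Mmp10 was at -1.58 without mouse 1 and -1.19 without mouse 5, again with 1 mouse left in a genotype. With wells of up to 30% mitochondrial transcripts, 198 wells of 6 mice entered in place of 128 wells, of which those of 4 mice had been tested, and the log2 fold changes were 0.05 for Mmp9, 0.59 for Mmp10 and 0.81 for Mmp13. That setting changed the wells and the mice at once, and their parts were not separated. In the wells of the reported setting, mice 3 and 6, left out with 8 and 7 wells, went the other way. Mmp9, Mmp10 and Mmp13 were at 347, 5411 and 10418 CPM in FibΔZeb1 mouse 6. All 3 genes were lower in Fib Ctrl mouse 3 than in either FibΔZeb1 mouse tested, so that the genotypes overlapped over all 6 mice. In iCAF-like wells, 0 of 6 members passed, and 0% of 8763 genes (119 at an unadjusted p under 0.05, 0 called by DESeq2), with Mmp3 at 1.09 ± 0.65, Timp1 at -0.60 ± 0.40 and Timp2 at 0.34 ± 0.27. Of the 47 related genes, 0 passed in any of these comparisons, of which 36 were tested over all wells and 32 in fibroblasts.

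Whether the differences between types themselves varied with genotype was tested by an interaction term. For telocyte-like against other fibroblasts, 0 of 7297 genes passed with edgeR (221 at an unadjusted p under 0.05), and for neutrophils against fibroblasts 0 of 3865 (175 at an unadjusted p under 0.05). The lowest unadjusted p of a member was 0.033 (Mmp13) in the former and 0.019 (Timp3) in the latter.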

How the data were processed

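SORT-seq (CEL-Seq2) of 1 plate per mouse was analysed for all 6 mice. Per the labels, the authors aligned reads with BWA to transcripts of GRCm38 (Cell Ranger 2.1.1 is also named, with no role) and deposited barcode counts (whole counts of molecular barcodes) and transcript counts, which are estimated counts corrected by the authors for molecules that share a barcode; neither was normalized. The estimated counts were used and barcode counts were an alternative. Spike-in RNA (7.845% to 18.583% of a plate) was left out. Plates share 384 well barcodes by construction, and profiles in the same well of different plates were as far apart (median correlation 0.208) as in different wells (0.209). Doublets were not called, since sorting placed single cells.

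Wells were kept and typed as described, and counts were summed per mouse and type (at least 10 wells), and rounded, and their differences were tested by the quasi-likelihood method of edgeR 4.0.16 after filterByExpr and TMM scaling (Benjamini-Hochberg at 0.05; SE from the F statistic); gate markers were left out of counts of calls. Comparisons of types had the mouse as a block, since both types come from the same animal. DESeq2 1.42.0, RLE size factors, other filters, stricter gates and leaving out each mouse were alternatives. The tests were checked on simulated data. Percentages of wells used counts thinned to 500 transcripts (1000 as an alternative) with exact binomial intervals, which cover counting error only. Each molecule is counted once at its 3' end, so levels are not scaled by length. All 10 members were named wherever tested, with 3 most similar genes each and up to 8 related genes per comparison by fold; 1 related gene is not reported here by name. The members, lists and gates were chosen with earlier results of these data known. Promoters come from RefSeq (GRCm38.p6), with 8 of 10 members matched; Mmp2 and Mmp9 promoters were not used here.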

Additional observations from a re-analysis of the deposited data

Results flagged for a closer look

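The difference in Timp3 between pericyte and fibroblast wells had opposite signs in the genotypes: it averaged 387 CPM higher in pericytes of the 2 Fib Ctrl mice (1467 against 1337 CPM in mouse 1, 1660 against 1016 CPM in mouse 4) and was -1019 CPM in the single FibΔZeb1 mouse with at least 10 pericyte wells (mouse 2, 1101 against 2120 CPM). This difference between genotypes was not tested. Groups of 3 mice are too small for a test of outlying mice.

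Wells with 10 to 30% mitochondrial transcripts, which no comparison used in its reported form, also held the members. Over 70 telocyte-like wells of this kind, the levels were 391 CPM for Mmp9, 538 CPM for Mmp10 and 237 CPM for Mmp13, against 147, 1424 and 1735 CPM in the telocyte-like wells kept, where single wells weigh heavily. Mmp2 was at 1910 CPM there, Mmp14 at 510 CPM, Mmp3 at 34.5 CPM, Timp1 at 115 CPM, Timp2 at 694 CPM and Timp3 at 554 CPM.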

How the results depend on the processing

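Of 58 member fold changes followed through the alternatives, 26 were called. Several of these passed the filter on low counts through the higher side only and had to differ, as stated with those results. None of the 26 reversed under any alternative run, but for such members the direction was set by the filter. Nothing is therefore read from this count. The calls of 7 were lost under some alternative: Timp2 in telocyte-like wells, Mmp3 and Mmp10 in pericytes, and Mmp14, Timp1, Timp2 and Timp3 in epithelial wells (Timp2 there also with only genes named mt- as mitochondrial, adjusted p = 0.064). The cause was not tested. The limit of 30% on mitochondrial transcripts was added after the data had been seen.

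Counts of genes called moved as follows. DESeq2 called 1 gene over all wells, 2 in fibroblasts and 3 in telocyte-like wells between genotypes. Without the filter on low counts, genotype calls were 7 (neutrophils), 130 (telocyte-like) and 73 (iCAF-like), and type calls 7350 (neutrophils), 1361 (telocyte-like), 1603 (iCAF-like) and 1892 (epithelial), where more genes were tested. The 30% limit gave 1147 calls in epithelial wells. Leaving out a mouse gave 0 to 1 genotype calls in neutrophils, 55 to 179 in telocyte-like and 0 to 95 in iCAF-like wells, and 382 to 849 calls for telocyte-like, 424 to 1001 for iCAF-like and 285 to 1677 for epithelial wells; where 1 mouse was left in a genotype, it was assumed to vary like the others.

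None of the fold changes that turned sign had been called, and of their turned values only that of Mmp13 in pericytes without mouse 2 was (-1.66, adjusted p = 0.034). With only genes named mt- as mitochondrial and with the 30% limit, the genotype log2 fold change of Mmp9 became 0.29 and 0.010 in fibroblasts and 0.040 and 0.046 in telocyte-like wells, those of Mmp10 and Mmp13 in telocyte-like wells 0.60 and 0.59, and 0.83 and 0.81, that of Mmp2 between telocyte-like and other fibroblasts 0.040 and 0.047, and that of Mmp13 in pericytes -1.57 and -1.59; Mmp14 in telocyte-like wells was -0.0093 with the 30% limit. Leaving out a mouse moved the genotype fold changes in fibroblasts between -3.65 and 0.85 (Mmp9), -1.77 and 2.94 (Mmp10), -4.28 and 5.91 (Mmp13) and -0.58 and 0.40 (Timp3), that of Mmp8 in neutrophils between -0.82 and 0.021, and those in telocyte-like wells between -1.58 and 0.18 (Mmp10) and -6.33 and 0.52 (Mmp13). Between types, it moved Mmp14 between -0.0026 and 0.32 (telocyte-like) and -0.10 and 0.090 (iCAF-like), and in pericytes Mmp9 between -3.51 and 0.69, Mmp13 between -1.66 and 3.32 (adjusted p = 1.9e-13 at 3.32) and Timp3 between -0.62 and 0.24. The called change of Mmp3 in pericytes went from -2.98 to -10.08 without mouse 4 and -0.81 without mouse 2. Calls were gained between types by Mmp9 and Mmp14 in pericytes and by Mmp3, Timp1 and Timp3 in telocyte-like and iCAF-like wells, under the settings given with those results; where that was the 30% limit, counting only genes named mt- as mitochondrial gave the call as well.

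The mouse block changed few results. Without it, 691 genes were called for telocyte-like, 741 for iCAF-like, 1149 for pericyte, 737 for epithelial and 2931 for neutrophil wells, Mmp3 and Mmp10 lost their calls in pericytes and Mmp13 there turned to -2.33. It changed no other member's call. No paired analysis was possible because the genotypes compared share no replicate number.

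Shares of wells with a transcript depended on the thinned depth: at 1000 in place of 500 transcripts, 63.5% and 46.5% of neutrophil wells had Mmp9 and Mmp8, and 31.25% of telocyte-like wells had Mmp10. With 3 mice a genotype, low counts of Mmp3, Mmp8 outside neutrophils, and Mmp13 in few wells, small differences were not detectable at this depth.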
